A study of Mus musculus with 12 samples.

Results

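The genes described here are 9 genes of iron and divalent metal handling, Slc11a1, Slc11a2, Slc40a1, Fth1, Ftl1, Tfrc, Hmox1, Ireb2 and Ncoa4. They were chosen by name, as the rows of the deposited count table whose symbol is one of the 9. All 9 were found among the 39666 genes of the table, and all 9 passed the filter on low counts that left 18302 genes to test. RNA came from airway eosinophils of wild-type C57BL/6 mice, 8 to 12 weeks old, in which allergic airway inflammation had been induced. Every mouse received 20 µg ovalbumin with 4 mg alum on days 0 and 7 and breathed 1% ovalbumin aerosol for 40 minutes a day on days 16 to 18, with harvest on day 19, so no untreated group stands beside these samples. Eosinophils of each pooled lung lavage were sorted into cells with the receptor TREM-1 at their surface (TREM-1+) and cells without it (TREM-1-), which gave 6 libraries of each from 6 lavages. Lavages were pooled from several mice, and nothing in the labels says that the pools shared no animals, so the p-values speak only of the spread among 6 pairs of pools.

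Iron enters a cell bound to transferrin through the transferrin receptor, encoded by Tfrc, and crosses membranes as a divalent ion through DMT1, encoded by Slc11a2. NRAMP1, encoded by Slc11a1, is the related transporter of the phagosome membrane, where it moves iron, manganese and other divalent metals and so limits the growth of engulfed microbes. Iron that is not used is stored in a ferritin shell of heavy (Fth1) and light (Ftl1) chains, NCOA4 carries ferritin to the lysosome for breakdown, ferroportin (Slc40a1) exports iron, and heme oxygenase 1 (Hmox1) frees it from heme. The iron regulatory protein IRP2 (Ireb2) binds a hairpin in messenger RNA, the iron-responsive element. Bound near the start of a message it blocks translation, and bound behind the coding region it protects the message from decay. The C57BL/6 strain is known to carry an Slc11a1 allele whose protein is not functional, which limits these mice as a model of what NRAMP1 does, whatever the level of its transcript.

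The iron-responsive element is the sequence that the product of Ireb2 reads, so hairpins that a strict pattern found in 4 of the members are shown before the values. Transcripts of GENCODE release M21 (assembly GRCm38) were searched on the transcript strand for a C, 5 bases, the loop CAGTGN and 5 bases able to pair with the first 5, G to T pairs allowed. At least 1 protein-coding transcript of 294 of 21877 genes (1.34%) held the pattern, as did those of 4 of the 9 members. In the sequences, written as DNA from 5′ to 3′, the capitals mark the loop.
Slc40a1, 5′ UTR, exon 1, chr1:45925465-45925493, minus strand: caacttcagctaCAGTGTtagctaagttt
Fth1, 5′ UTR, exon 1, chr19:9982732-9982760, plus strand: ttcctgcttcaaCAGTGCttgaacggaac
Ftl1, 5′ UTR, exon 1, chr7:45459779-45459807, minus strand: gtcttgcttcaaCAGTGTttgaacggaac
Tfrc, first of 4 in the 3′ UTR, exon 19, chr16:32631219-32631247, plus strand: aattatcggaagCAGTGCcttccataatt
Tfrc, the fourth in that UTR, exon 19, chr16:32631710-32631738, plus strand: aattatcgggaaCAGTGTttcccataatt
The 2 ferritin elements had 26 of 29 bases in common, and the 2 printed Tfrc elements 24 of 29, while the ferroportin element shared 13 of 29 with each ferritin element. A match is a description of these letters only. The 4 elements counted in Tfrc are those that met this strict pattern, which would miss any of looser form. The other 5 members held no match to these letters, which says nothing about whether their messages are bound, and Slc11a2 is known for an element of looser form.

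Slc11a1 was the member that differed most between the fractions: within a lavage, the TREM-1+ fraction held 38.1% less of its transcript than the TREM-1- fraction. Of the 9 members, 3 were called lower (Slc11a1, Ireb2 and Fth1) and 1 higher (Slc40a1) by edgeR's quasi-likelihood test at a Benjamini-Hochberg adjusted p below 0.05. Over all genes tested, 9.82% were called, 6.72% as lower and 3.1% as higher. With a filter at a mean of at least 5 CPM, 1898 of 10978 genes were called. The members had a median log2 fold change of -0.043, and all genes tested one of 0.0043. Levels are CPM, a gene's count relative to the library total, scaled with TMM factors, which allow for differing RNA composition, and every difference is TREM-1+ minus TREM-1-. Less RNA of a gene per cell and fewer cells that express it cannot be told apart in these bulk libraries. Total counts ran from 8626701 to 21234053, and in 6 of 6 lavages Trem1, the gene of the sorted antigen, was higher in TREM-1+ cells. Scaling by library totals alone, without TMM factors, moved the median over all genes to 0.13 on the log2 scale, so changes below about that size depend on the scaling. The libraries of lavages 1 and 2 were far closer to each other (chi-square per gene of 5.26 in TREM-1- and 6.88 in TREM-1+) than any others of the same fraction (at least 20.6), so those 2 lavages may not be independent.

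**Figure D1:**
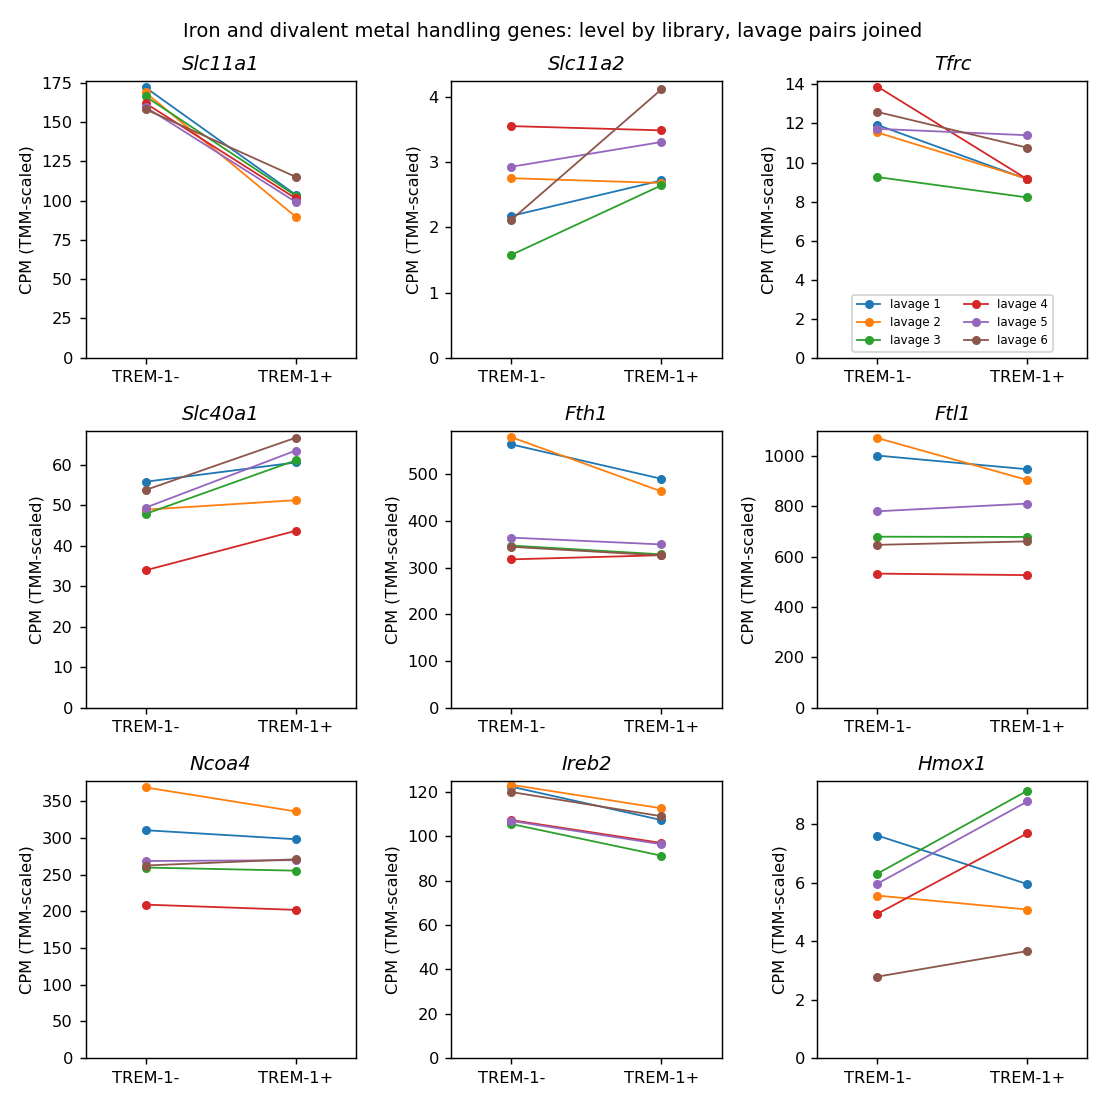
Level of each of the 9 genes in CPM (vertical axes, each starting at 0) in TREM-1- and TREM-1+ eosinophils, with 1 point per library and a line joining the 2 fractions of a lavage. The Slc11a1 lines all fall from a narrow band of 158 to 172 CPM to between 89.7 and 115 CPM, whereas the Fth1 and Ftl1 points are spread mainly by lavage.

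Slc11a1 (NCBI gene 18173) had 172, 169, 166, 162, 159.5 and 158 CPM in the TREM-1- libraries of lavages 1 to 6. Its values in the TREM-1+ libraries were 104, 89.7, 103, 101, 99.1 and 115 CPM in the same order. All 6 TREM-1+ values lay below all 6 TREM-1- values, a separation that 0.656% of tested genes showed in this direction and 0.295% in the other. The means were 164 ± 5.47 and 102 ± 8.17 CPM (SD, n = 6), a log2 fold change of -0.69 ± 0.045 (SE) with an edgeR adjusted p of 1.44e-12. Among the 18302 genes it ranked 16 by p. The paired log2 difference ran from -0.91 in lavage 2 to -0.46 in lavage 6, and flipping the signs of the 6 differences in all ways (an exact permutation test, two-sided) gave an unadjusted p = 0.0312, the smallest that 6 pairs allow. It was -0.56 with library totals alone (edgeR adjusted p = 6.19e-10) and -0.69 without the lavage block (edgeR adjusted p = 0.000128).

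Slc11a1 varied little from lavage to lavage next to its difference between fractions. Its highest value was 1.09 times its lowest in TREM-1- and 1.28 times in TREM-1+ libraries. For Ireb2 these ranges were 1.17 and 1.23 times, and in TREM-1- libraries Fth1 ranged 1.82 times and Ftl1 2.01 times. Of the sum of squares of its log2 CPM over the 12 libraries, the fraction took up 94.8% and the lavage 1.73%. Over all genes tested, the median shares were 5.07% for the fraction and 65.1% for the lavage. These raw shares favour the lavage, which has more levels. One gene of 18302, Id1, had a larger fraction share than Slc11a1. The fraction share of Slc11a1 was 92.1% with library totals alone, and again 1 gene, then Il1b, had a larger one. Both genes were named after their values were seen.

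**Figure D2:**
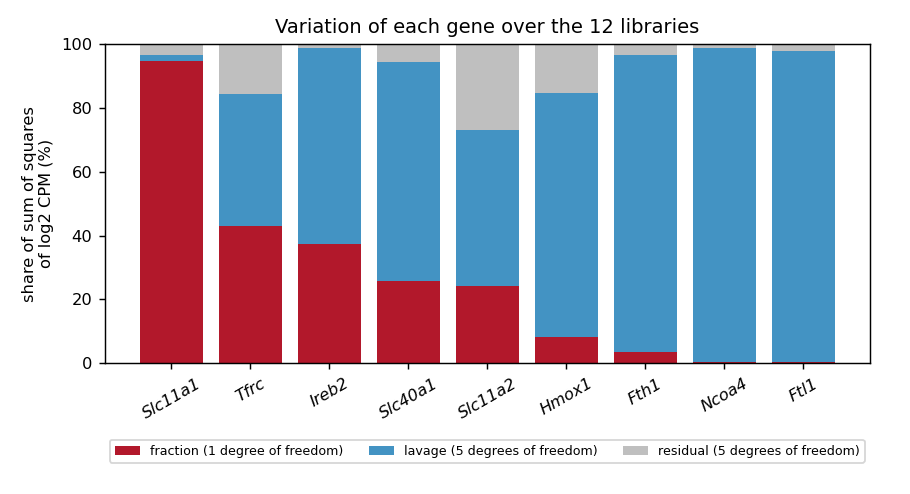
Share of the sum of squares of log2 CPM over the 12 libraries (vertical axis, percent) that the fraction, the lavage and the residual take up, for each of the 9 genes on the horizontal axis. The fraction holds 94.8% in Slc11a1 and under 1% in Ftl1 and Ncoa4, where the lavage holds 97.2% and 98.1%.

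Slc11a2 (18174), the gene for the other divalent metal transporter of this family, was the least abundant member, at 29 to 72 counts per library. The lowest, median and highest values were 1.58, 2.47 and 3.56 CPM in TREM-1- and 2.65, 3.02 and 4.12 CPM in TREM-1+ libraries. The groups overlapped, and the TREM-1+ library was the higher of the pair in 4 of 6 lavages. Its log2 fold change of 0.35 ± 0.23 (SE) did not pass (edgeR adjusted p = 0.452). Ratios were taken from log2 CPM with a prior count of 1, which slightly lowers a ratio over a gene of few counts. The ratio of Slc11a1 to Slc11a2 within a library, which hardly depends on scaling, was 68.2 ± 20.2 in TREM-1- and 32.3 ± 4.57 in TREM-1+ eosinophils (SD, n = 6). It was lower in 6 of 6 pairs and the groups did not overlap (exact two-sided sign-flip permutation p = 0.0312, adjusted p = 0.0781 over the 5 ratios examined).

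Tfrc (22042), the transferrin receptor gene, had the lower value of the pair in TREM-1+ cells throughout, without passing the test. Its lowest, median and highest values were 9.25, 11.8 and 13.9 CPM in TREM-1- and 8.21, 9.15 and 11.4 CPM in TREM-1+ eosinophils, and the groups overlapped. TREM-1+ minus TREM-1- came to -0.29 ± 0.12 on the log2 scale (SE, edgeR adjusted p = 0.135), with paired differences from -0.60 in lavage 4 to -0.04 in lavage 5. A lower value in 6 of 6 pairs was found in 8.31% of all genes tested. Tfrc had 89 to 241 counts per library, and its SE was larger than the 0.038 of Fth1.

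Slc40a1 (53945), which encodes the iron exporter ferroportin, was the member called higher. It had 55.9, 49.0, 47.9, 34.0, 49.5 and 53.8 CPM in the TREM-1- libraries of lavages 1 to 6 and 60.6, 51.3, 61.1, 43.7, 63.6 and 66.7 CPM in their TREM-1+ partners. Every TREM-1+ library lay above its own partner, a pattern that 5.08% of tested genes showed upward, although the groups overlapped, and lavage 4 was the lowest in both. The means were 48.3 ± 7.68 and 57.8 ± 8.63 CPM (SD, n = 6), a rise of 19.6% (log2 fold change 0.26 ± 0.058, SE, edgeR adjusted p = 0.00211). The rise was smaller in lavages 1 and 2, with paired log2 differences of 0.12 and 0.07, than in lavages 3 to 6, where they ran from 0.31 to 0.36. In lavages 1 and 2 alone it was not called (0.11, edgeR adjusted p = 0.481), and whether the 2 sets of lavages differ was not tested. Scaled by library totals alone it was 0.38 (edgeR adjusted p = 0.000126).

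Macrophages are known for high ferroportin and heme oxygenase 1, and markers of macrophages moved with the fraction. Of 20 macrophage markers 13 could be tested, of which 6 were called higher and 1 lower in TREM-1+ eosinophils. Their summed level was 1253 to 1799 CPM in TREM-1- and 1521 to 2058 CPM in TREM-1+ libraries and was higher in 5 of 6 pairs. Adgre1, which mouse eosinophils are known to express, gave the most of any marker, at means of 983 and 875 CPM, and it was the 1 called lower. None of the 20 was at 0 in every library, but Marco did not pass 0.513 CPM, C1qa 0.869 CPM and Fabp4 0.435 CPM in any library. Fn1 was called higher, at means of 25.9 and 69.3 CPM (log2 fold change 1.49, edgeR adjusted p = 0.00842). Chil3, at means of 151 and 305 CPM, was higher in 6 of 6 pairs without passing (edgeR adjusted p = 0.0877). Ear2 was lower in 6 of 6 pairs (edgeR adjusted p = 0.0505). In TREM-1+ libraries Fn1 had 5.65 and 3.46 CPM in lavages 1 and 2 and 51.1 to 155 CPM in lavages 3 to 6. Chil3 had 32.3 and 25.9 CPM against 218 to 573 CPM. Not every marker of the list was low in lavages 1 and 2. In the same TREM-1+ libraries Car4 had 416 and 371 CPM there and 214 to 325 CPM in lavages 3 to 6. Pparg had 10.5 and 8.77 CPM against 5.85 to 7.53 CPM, and Adgre1 1062 and 1062 CPM against 704 to 855 CPM. Neutrophil markers, of a cell type also known for Slc11a1, were called higher in 6 of 7 tested genes and lower in 1, Retnlg. The summed level of the 12 neutrophil markers was 1544 to 2291 CPM in TREM-1- and 1328 to 2217 CPM in TREM-1+ libraries. This sum was higher in TREM-1+ in 1 of 6 pairs. Most of it was Retnlg, at means of 1603 and 1244 CPM, and Elane was at 0 throughout. The highest value in any library was 0.678 CPM for Camp, 1.02 for Lcn2, 0.503 for Mmp8 and 0.109 for Mpo. S100a8 rose from a mean of 1.70 to 8.72 CPM (log2 fold change 2.35, edgeR adjusted p = 1.92e-10). S100a9 rose from 37.3 to 97.5 CPM (1.45, edgeR adjusted p = 2.2e-08), both in 6 of 6 pairs. Erythroid markers, which would show red cell RNA, summed to 1.09 to 3.88 and 1.51 to 3.26 CPM, with Hba-a2 at 0 in every library. T and innate lymphoid cell markers were low, at a summed 8.78 to 55.7 and 10.1 to 104 CPM, but the sum was higher in TREM-1+ in 6 of 6 pairs, and 6 of 8 tested markers were called higher and 0 lower (median log2 fold change 1.00). The sort kept cells with Siglec-F and with low to intermediate CD11c and Ly6G. The part of other cells in the differences of Slc11a1, Slc40a1 and Hmox1 was not tested. The eosinophil genes Siglecf, Ccr3, Il5ra, Epx, Prg2, Alox15 and Il1rl1 were all present, at a summed 4226 to 6366 CPM in TREM-1- and 4201 to 6284 CPM in TREM-1+ libraries. Of these 7, Siglecf, Ccr3, Il5ra and Il1rl1 were called lower in TREM-1+ (log2 fold changes from -0.29 to -0.14) and Prg2 and Alox15 higher (0.34 and 0.19), each in 6 of 6 pairs.

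**Figure D3:**
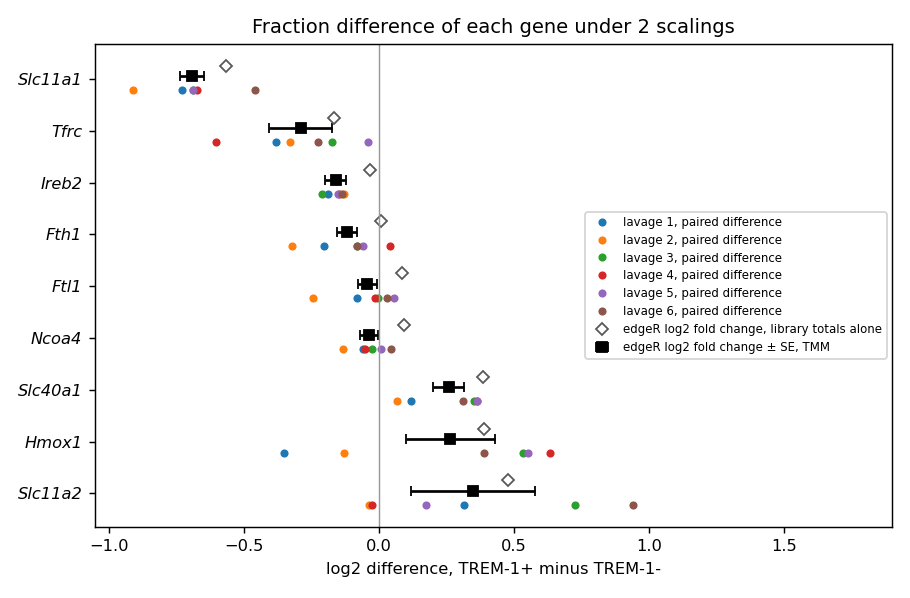
Log2 difference between TREM-1+ and TREM-1- eosinophils (horizontal axis) for each gene: filled squares with bars are the edgeR log2 fold change ± SE with TMM factors, open diamonds the same with library totals alone, and circles the paired difference in each of the 6 lavages. Slc11a1 and Slc40a1 lie on their side of 0 under both scalings, and Fth1, Ftl1 and Ncoa4 move from below 0 to above it with library totals alone.

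The ferritin genes were the most abundant members, and they differed far more between lavages than between fractions. Fth1 (14319), the heavy chain with the ferroxidase site, had a lowest, median and highest value of 317, 355 and 579 CPM in TREM-1- and of 326, 339 and 489.6 CPM in TREM-1+ libraries. Lavages 1 and 2 were the high ones in both fractions, and the groups overlapped. Fth1 was called lower with TMM factors (log2 fold change -0.12 ± 0.038, SE, edgeR adjusted p = 0.042), lower in 5 of 6 lavages, but library totals alone gave 0.0092 (edgeR adjusted p = 0.928). The call was also lost without lavage 1, 2, 3, 5 or 6, with edgeR adjusted p from 0.0533 to 0.246, and in lavages 3 to 6 alone (-0.049, edgeR adjusted p = 0.657). In lavages 1 and 2 alone it was -0.24 (edgeR adjusted p = 7.96e-07).

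Ftl1 (14325), the light chain, had 533, 730 and 1072 CPM as its lowest, median and highest value in TREM-1- and 527, 745 and 947 CPM in TREM-1+ libraries. The order of the lavages was kept nearly whole between the fractions, with lavage 4 lowest and lavages 1 and 2 highest in both. Ftl1 was lower in 4 of 6 pairs, with a log2 fold change of -0.043 ± 0.035 (SE, edgeR adjusted p = 0.572), and of 0.085 with library totals alone (edgeR adjusted p = 0.218). In lavages 1 and 2 alone Ftl1 was called lower (-0.14, edgeR adjusted p = 0.00814). Ferritin messages have many processed copies in the genome, and how shared reads were divided is not known, but the 1 ferritin pseudogene row found by its symbol, Ftl1-ps2, held at most 20 counts, or 0.139% of Ftl1. The 2 ferritin chains together made up between 0.0782% and 0.156% of a library's counts.

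Ncoa4 (27057), the gene for the ferritin cargo receptor, behaved like the ferritin chains. Its lowest, median and highest values were 209, 266 and 369 CPM in TREM-1- and 202, 270.4 and 336 CPM in TREM-1+ libraries, again with lavages 1 and 2 high and lavage 4 low. Its log2 fold change was -0.036 ± 0.034 (SE) with an edgeR adjusted p of 0.656, and 0.091 with library totals alone (edgeR adjusted p = 0.192). Lavage took up 98.1% of its sum of squares, and 0.508% of all genes had a larger lavage share.

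Ireb2 (64602), which encodes IRP2, was lower by a small and even amount. Its lowest, median and highest values were 106, 114 and 123 CPM in TREM-1- and 91.3, 102 and 113 CPM in TREM-1+ libraries, and each TREM-1+ library lay below its partner. The paired log2 differences ran only from -0.21 in lavage 3 to -0.13 in lavage 2, for a log2 fold change of -0.16 ± 0.04 (SE) and an edgeR adjusted p of 0.0065. This fall of 10.5% is about as large as the shift between scalings, and Ireb2 was not called when library totals alone were used (-0.034, edgeR adjusted p = 0.731). It was also not called in lavages 1 and 2 alone (-0.14, edgeR adjusted p = 0.135), in lavages 3 to 6 alone (-0.16, edgeR adjusted p = 0.0629) or without lavages 3 and 4 (-0.15, edgeR adjusted p = 0.0571).

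Hmox1 (15368), for the inducible heme oxygenase, split by lavage. It was lower in TREM-1+ eosinophils of lavages 1 and 2, by paired log2 differences of -0.35 and -0.13, and higher in lavages 3 to 6, by 0.53, 0.63, 0.55 and 0.39. Its lowest, median and highest values were 2.78, 5.77 and 7.62 CPM in TREM-1- and 3.66, 6.83 and 9.16 CPM in TREM-1+ libraries, with lavage 6 lowest in both. Over all lavages its log2 fold change was 0.26 ± 0.16 (SE) with an edgeR adjusted p of 0.414, from 46 to 154 counts per library. The value was -0.23 in lavages 1 and 2 alone (edgeR adjusted p = 0.657) and 0.53 in lavages 3 to 6 alone (edgeR adjusted p = 0.168), and the difference between these sets was not tested.

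Ratios of 2 genes in the same library compare transcripts of the arms of iron handling with hardly any effect of scaling. They are ratios of RNA alone, and neither protein nor iron was measured. The ratio of the exporter gene Slc40a1 to the storage gene Fth1 was 0.0993, 0.0847, 0.138, 0.107, 0.136 and 0.156 in the TREM-1- libraries of lavages 1 to 6. In the TREM-1+ libraries it was 0.124, 0.111, 0.186, 0.134, 0.182 and 0.205. It was higher in TREM-1+ in 6 of 6 pairs by a nearly constant amount, with log2 differences from 0.32 to 0.43 and a mean of 0.38 ± 0.048 (SD, n = 6, exact two-sided sign-flip permutation p = 0.0312, adjusted p = 0.0781 over the 5 ratios). None of the 5 ratios passed 0.05 after adjustment. With 6 pairs the smallest p is 0.0312, so a single ratio cannot pass after adjustment over 5, whatever its size.

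The other 3 ratios did not move 1 way in every lavage. Fth1 to Ftl1, the heavy to light chain balance, was 0.534 ± 0.044 in TREM-1- and 0.509 ± 0.062 in TREM-1+ libraries (SD, n = 6), lower in 5 of 6 pairs (mean log2 difference -0.074, exact permutation p = 0.0625, adjusted p = 0.104). Tfrc to Fth1, import against storage, had a mean log2 difference of -0.17 (exact permutation p = 0.0938, adjusted p = 0.117), and Ncoa4 to Fth1 one of 0.081 (exact permutation p = 0.125, adjusted p = 0.125). Lavage 4, whose TREM-1+ library had the lowest total count, went against the other lavages in Fth1 to Ftl1 and in Ncoa4 to Fth1, and had the largest fall in Tfrc to Fth1.

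**Figure D4:**
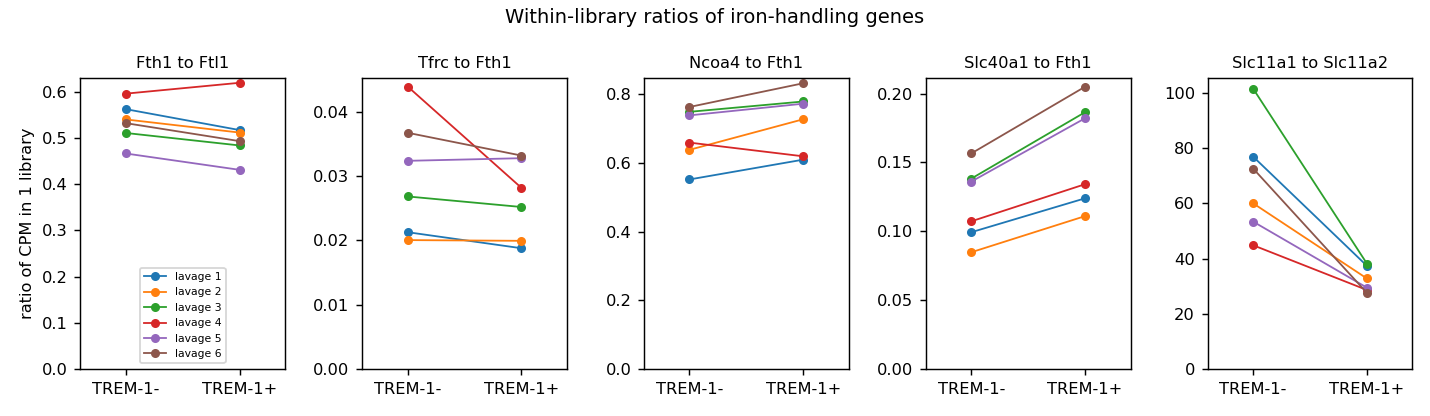
Ratio of the CPM of 2 genes within a library, from log2 CPM with a prior count of 1 (vertical axes, each starting at 0), in TREM-1- and TREM-1+ eosinophils. There is 1 point per library and a line joining the 2 fractions of a lavage. Slc40a1 to Fth1 rises along 6 nearly parallel lines, and Slc11a1 to Slc11a2 falls from 44.8 to 101.5 in TREM-1- to between 27.5 and 38.1 in TREM-1+.

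Set against transcript length, the members spanned a wide range in these eosinophils. Levels in CPM per kilobase of the longest GENCODE transcript were, as means over the 12 libraries, 796 for Ftl1, 194 for Fth1, 58.3 for Ncoa4, 48.9 for Slc11a1, 18.8 for Ireb2, 13.5 for Slc40a1, 3.91 for Hmox1, 2.19 for Tfrc and 0.643 for Slc11a2. Neighbours in this order kept it in 12 of 12 libraries, except Ncoa4 over Slc11a1 (8 of 12) and Hmox1 over Tfrc (11 of 12). Ncoa4 and Slc11a1 did not differ beyond their spread in TREM-1- eosinophils, at 59.2 ± 11.5 and 60.3 ± 2.01 CPM per kilobase, while in TREM-1+ eosinophils they were at 57.5 ± 9.46 and 37.4 ± 3.0 (SD, n = 6). With the longest protein-coding transcript, a length chosen after seeing the data, the order was the same, and Ireb2 lay above Slc40a1 in 9 of 12 libraries. Which isoforms these cells use is not known, so the spacing of the levels is approximate.

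**Figure D5:**
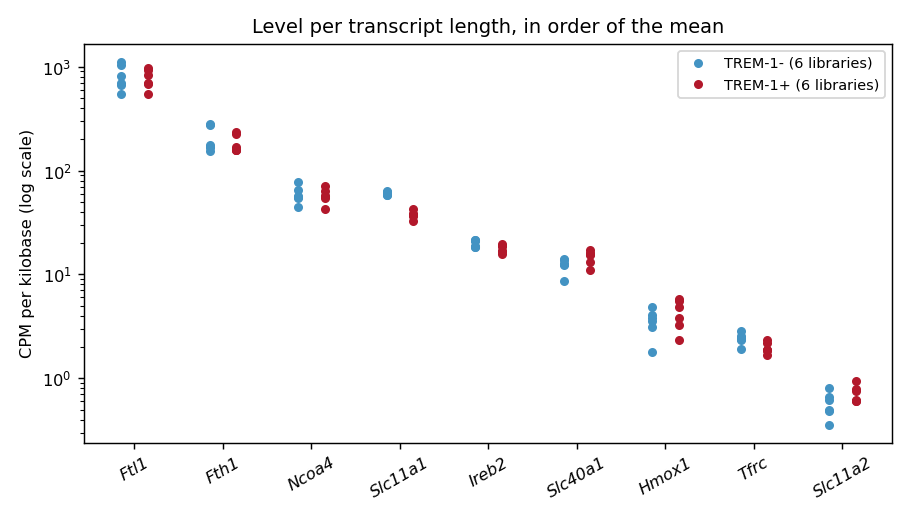
Level in CPM per kilobase of the longest transcript (vertical axis, log scale) for each gene in order of its mean, with 1 point per library, blue for TREM-1- and red for TREM-1+. Storage genes are at the top with Ftl1 at a mean of 796, and the importer genes Tfrc and Slc11a2 at the bottom with 2.19 and 0.643.

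For each member, the genes most like it in log2 CPM over the 12 libraries were taken from 10959 genes of at least 5 CPM on average. Those closest to Slc11a1 were Sephs2 (Pearson r = 0.969) and Chsy1 (0.961). Ireb2 was closest to Acsl4 (0.974) and Sypl (0.961), and Slc40a1 to Blcap (0.952) and the mitochondrial carrier gene Slc25a39 (0.937). Fth1 was closest to the ribosomal protein genes Rps27 (0.987) and Rpl18 (0.983), Ftl1 to Add1 (0.991) and Sirpa (0.99) and Ncoa4 to Uhmk1 (0.97) and Erp29 (0.969). The least abundant members had weaker likenesses, Hmox1 to Gys1 (0.913) and Usp20 (0.884), Slc11a2 to Haghl (0.893) and Gm34538 (0.869), and Tfrc to Rbpj (0.838) and Frrs1 (0.836). These values were picked as the highest of many over libraries that share lavages, and they carry no test.

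Other genes of metal handling were taken from 5 lists. Of their 106 genes, 85 were tested, 9 were called lower and 6 higher, and the median log2 fold change was 0.024 against 0.0043 over all genes. The shares over all genes tested were 6.72% lower and 3.1% higher. The share called was larger among more abundant genes: with a filter at a mean of at least 5 CPM, 1898 of 10978 genes were called (1264 lower, 634 higher). Under library totals alone the counts were 3 lower and 11 higher, beside 376 lower and 1880 higher of all 18302 genes, so the split moved with that of all genes. Of 8 tested genes of iron regulation, 2 were lower and 0 higher. Hif1a, for the oxygen-sensitive transcription factor subunit whose hydroxylases need iron, fell from 599 ± 84.8 to 437 ± 71.9 CPM (SD, n = 6, log2 fold change -0.46 ± 0.036, SE, edgeR adjusted p = 1.04e-10). Bach1, for the heme-binding repressor of Hmox1 and the ferritin genes, fell from 212 ± 21.9 to 189.7 ± 18.2 CPM (-0.16 ± 0.035, SE, edgeR adjusted p = 0.00169). Bach1 was not called with library totals alone (-0.033, edgeR adjusted p = 0.702).

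Of 14 genes of iron uptake, reduction and trafficking, 2 were lower and 1 higher. The lower genes were those of the 2 mitoferrins, the iron carriers of the inner mitochondrial membrane. Slc25a37 fell from 52.6 ± 3.32 to 43.7 ± 5.41 CPM and Slc25a28 from 36.4 ± 2.61 to 30.9 ± 3.5 CPM (SD, n = 6), with log2 fold changes of -0.27 and -0.24 (edgeR adjusted p = 0.00437 and 0.0178). Neither was called with library totals alone (-0.15, edgeR adjusted p = 0.233, and -0.12, edgeR adjusted p = 0.358). Without lavage 6 both calls were lost, and that of Slc25a28 also without lavage 4 or 5. Ltf, which encodes the iron-binding granule protein lactoferrin and is one of the neutrophil markers above, was higher in 6 of 6 pairs, at 17.1 ± 3.36 against 9.06 ± 2.63 CPM (SD, n = 6, log2 difference 0.93 ± 0.12, SE, edgeR adjusted p = 1.19e-06).

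Of 20 heme genes, 1 was lower and 2 higher. Hmox2, the gene of the constitutive heme oxygenase, fell in 6 of 6 pairs from 48.0 ± 5.55 to 37.4 ± 4.29 CPM (SD, n = 6, log2 fold change -0.36 ± 0.063, SE, edgeR adjusted p = 8.91e-05). Flvcr1, for a heme exporter, had a log2 fold change of 0.22 (edgeR adjusted p = 0.0416), and Hp, for the hemoglobin scavenger haptoglobin, one of 0.69 (edgeR adjusted p = 0.0355). Both rises were near the threshold and were lost without lavage 1, 3 or 6, and Flvcr1 also without lavage 2 or 4 and Hp without lavage 5. In all, the call of Flvcr1 was lost under 12 of 17 alternatives, among them limma-voom (adjusted p = 0.0691) and DESeq2 (adjusted p = 0.0543), and that of Hp under 8 of 16. Among 20 genes of iron-sulfur cluster assembly, 2 were lower and 0 higher. The scaffold gene Iscu had a log2 fold change of -0.27 (edgeR adjusted p = 0.00878), lost with library totals alone (-0.15, edgeR adjusted p = 0.206) and without lavage 1 or 4. Fdxr, for ferredoxin reductase, had one of -0.76 ± 0.16 (SE, edgeR adjusted p = 0.00121), from 9.24 ± 1.99 to 5.45 ± 1.37 CPM (SD, n = 6), and was not called in lavages 1 and 2 alone (-0.52, edgeR adjusted p = 0.056).

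Zinc, manganese and copper genes went both ways, with 2 of 23 lower and 3 higher. Slc39a4, for the zinc importer ZIP4, rose in every pair, at 14.2 ± 2.29 against 22.2 ± 5.03 CPM (SD, n = 6, log2 difference 0.63 ± 0.11, SE, edgeR adjusted p = 5.97e-05), but was not called in lavages 1 and 2 alone (0.35, edgeR adjusted p = 0.0596). Slc30a9 fell from 77.2 ± 10.5 to 63.6 ± 8.33 CPM (-0.27 ± 0.057, SE, edgeR adjusted p = 0.00108), but was not called with library totals alone (-0.15, edgeR adjusted p = 0.114). Of the copper genes, Slc31a2 (log2 fold change 0.20, edgeR adjusted p = 0.0218) and the ATPase gene Atp7a (0.17, edgeR adjusted p = 0.0402) were higher. The copper chaperone gene Atox1 (-0.27, edgeR adjusted p = 0.0397) was called lower with TMM factors, but not with library totals alone (-0.14, edgeR adjusted p = 0.34). Leaving out lavage 1 or 3 ended the calls of Slc31a2, Atp7a and Atox1, and the call of Slc31a2 was also lost without lavage 4, those of Atp7a and Atox1 without lavage 2 and that of Atp7a without lavage 6. In all, of 17 alternatives 6 lost the call of Slc31a2, 9 that of Atp7a and 8 that of Atox1. DESeq2 was among them for Atp7a (adjusted p = 0.0542) and Atox1 (adjusted p = 0.0601). Atox1 was at -0.51 in lavages 1 and 2 alone (edgeR adjusted p = 7.9e-07) and -0.12 in lavages 3 to 6 alone (edgeR adjusted p = 0.665).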

How the data were processed

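Total RNA of 12 libraries was depleted of ribosomal RNA and read as 100 bp paired ends, per the labels' protocols. The authors deposited an estimated count per gene, whole numbers here and rounded before use. Tools in the submitters' processing notes are edgeR 3.42.4, kallisto 0.45.0 and R 4.3.0, with the build GRCm39, none with a role. The libraries were stranded, but the annotation and the strand setting of the counting are not given in the sources used here, and overlapping antisense genes may not be separated. The authors also deposited log2 CPM for 17934 genes, whose values for the 9 members were matched from the counts (TMM, prior count 1) to within 2.16e-09. All per-sample columns were used.

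The main test was run in R 4.3.3 with edgeR 4.0.16 (TMM, filterByExpr by fraction with minimum count 10 and total 15, robust quasi-likelihood F test, lavage as a block). SEs are the log2 fold change over the square root of F. Paired differences and ratios are from log2 CPM with a prior count of 1. The lavage pairing is stated in the series' design text, and deviations from group means correlated within every pair (0.127 to 0.502), the own partner being the best match in 5 of 6 (not lavage 3). Alternatives used DESeq2 1.42.0, limma-voom (limma 3.58.1), other scalings and filters, no block and left-out lavages. On simulated data for this comparison (18302 genes) 100% of genes changed by a fold of 2 were recovered. The changed genes were drawn from those of at least 5 CPM on average, and every gene was given the same scatter between libraries. No member differed by a fold of 2, so this share does not say how well changes of their size are found. Named genes are the members, every called gene of the 5 lists, and the 2 genes most like each member; Id1, Il1b, the pseudogene and the single markers named were added after their values were seen, and Trem1 checks the sort. The members and lists were chosen with earlier results of these data known.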

Additional observations from a re-analysis of the deposited data

Results flagged for a closer look

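The value farthest from the others was tested in 42 groups of 6 values (each member and each ratio, in each fraction and as paired differences), and 3 held a single value set apart, where chance gives about 1 in 20. All 3 came from lavage 4, whose TREM-1+ library had the lowest total count, but the Slc40a1 value is of its TREM-1- library. The 42 groups share values, so they are not independent. Slc40a1 in the TREM-1- library of lavage 4 was at 34.0 CPM, with the next lowest at 47.9 and the highest at 55.9 CPM. The paired log2 difference of Fth1 to Ftl1 was 0.056 in lavage 4 and between -0.12 and -0.078 in the other lavages. The paired log2 difference of Tfrc to Fth1 was -0.64 in lavage 4 and between -0.18 and 0.018 in the others, and without lavage 4 its mean moved from -0.17 to -0.082. No cause was tested.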

How the results depend on the processing

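Slc11a1 was called lower under every alternative run (without 1 lavage, log2 fold change -0.73 to -0.65). Without the lavage block (the replicate pairing removed), 83 genes were called (27 higher, 56 lower), Slc11a1 was the 1 member called lower and 0 members were higher (1304 genes had an unadjusted p below 0.05), 0 other metal genes were lower and 1 higher, and Slc40a1 (0.26, adjusted p = 0.673), Fth1 (-0.14, adjusted p = 0.97) and Ireb2 (-0.16, adjusted p = 0.745) lost their calls by edgeR. With library totals alone 1880 genes were higher and 376 lower, 16.7% in place of 68.4% of calls being lower. Then 1 member was lower, 3 other metal genes were lower and 11 higher, Ireb2 was at -0.034, and Fth1 (0.0092, paired 0.011), Ftl1 (0.085, paired 0.085) and Ncoa4 (0.091, paired 0.092) changed sign. In lavages 1 and 2 alone Slc40a1 (0.11) and Ireb2 (-0.14) were not called, 0 members and 3 other metal genes were higher, and Hmox1 was at -0.23. In lavages 3 to 6 alone 1168 genes were called (366 higher, 802 lower), 1 member was lower, Fth1 was at -0.049, Ireb2 at -0.16 and Ftl1 at 0.013. Without lavages 3 and 4, 347 genes were higher, 2 other metal genes were higher and Ireb2 was at -0.15. With lavages 1 and 2 summed as 1 pair Fth1 was at -0.089 (adjusted p = 0.185). Leaving out 1 lavage gave Fth1 -0.15 to -0.078 and 2 to 5 other metal genes higher. With 5 pairs the sign-flip test cannot pass. The cause was not tested, and smaller sets hold fewer samples. Slc11a2, Hmox1 and Tfrc, with at most 241 counts per library, had the largest SEs of the members (0.12 to 0.23).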
